A study of Mus musculus with 96 samples.

Results

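The neuropeptide genes described here are Npy, Sst, Vip, Cck, Tac1, Penk, Pdyn, Crh and Cort, chosen by gene symbol. Of the 56748 genes in the count table of the series, 9 carry these symbols. Their RNA was read in the cerebral cortex of mice fed ad libitum (AL) or kept on intermittent fasting (IF). Poly-A RNA was sequenced in 96 libraries from cortex, liver and skeletal muscle, and the 32 cortex libraries fall into 4 groups of 8. Mice 1 to 8 (AL) and 9 to 16 (IF) are labelled male. By the study's methods they were C57BL/6 mice on normal chow, and the IF animals went without food for 16 h of each day over 4 months, starting when they were 6 weeks old. The mice were killed in the morning, a time chosen so that IF animals were at the end of their daily fast. The regimen of 4 months and the unfed state at sampling therefore cannot be told apart. Mice 25 to 32 (AL) and 33 to 40 (IF) are labelled female, and their strain, age, feeding period and time of sampling are not given in the sources used here. Levels are given as CPM, the count of a gene divided by the total count of its library and scaled to a common depth. The comparisons ask whether daily fasting is accompanied by other amounts of neuropeptide RNA, in each set of mice apart and in both together.

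The library labelled AL mouse 1 goes against its label and was left out of the results unless it is named. It had 213 CPM of Xist, the RNA made from the inactive X chromosome of females, and 0 counts of the Y-linked genes Ddx3y, Eif2s3y, Kdm5d and Uty, where 3 counts would be 0.0626 CPM. In the other male cortex libraries Xist did not exceed 0.229 CPM and Ddx3y lay between 25.1 and 37.3 CPM. In female cortex Xist lay between 185 and 337 CPM. The liver and muscle libraries of mouse 1 held 0 CPM of Xist and 53.9 and 37.7 CPM of Ddx3y, so the mismatch was seen in its cortex library and not in those. Without it, 31 libraries with totals of 31231970 to 40235336 counts remained, with a median of 34545188. The left-out library was the deepest of the cortex, at 47904499 counts. Group totals ran from 32373437 to 39314534 in AL males (n = 7), from 31956366 to 36239203 in IF males (n = 8), from 31231970 to 39411095 in AL females (n = 8) and from 33615626 to 40235336 in IF females (n = 8).

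Neuropeptides are made as precursor proteins, processed by convertases inside dense-core granules, and released to act on receptors of nearby cells. In the cortex most of them come from GABAergic interneurons, whose main classes are named after the peptide or protein they hold, such as somatostatin or vasoactive intestinal peptide cells. Opioid and tachykinin precursors are also made in large amounts by the spiny projection neurons of the striatum, which lies under the cortex.

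The position of each gene in GRCm39 came from the table itself. Sst (ENSMUSG00000004366), the precursor of somatostatin, an inhibitory peptide, lies on the minus strand of chromosome 16 from 23708323 to 23709708. Cort (ENSMUSG00000028971), the precursor of cortistatin, a relative of somatostatin that binds the same receptors, lies on the minus strand of chromosome 4 from 149209491 to 149211220. Npy (ENSMUSG00000029819), the precursor of neuropeptide Y, lies on the plus strand of chromosome 6 from 49799690 to 49806487. On the same chromosome and strand Tac1 (ENSMUSG00000061762), the precursor of substance P and neurokinin A, runs from 7554879 to 7565834. Vip (ENSMUSG00000019772), the precursor of vasoactive intestinal peptide, is on the plus strand of chromosome 10 from 5589218 to 5597617. Crh (ENSMUSG00000049796), the precursor of corticotropin-releasing hormone, is on the minus strand of chromosome 3 from 19747565 to 19749560. Cck (ENSMUSG00000032532), the precursor of cholecystokinin, is on the minus strand of chromosome 9 from 121318890 to 121324760. Penk (ENSMUSG00000045573), the precursor of the enkephalins, is on the minus strand of chromosome 4 from 4133531 to 4138819. Pdyn (ENSMUSG00000027400), the precursor of the dynorphins, is on the minus strand of chromosome 2 from 129528485 to 129541764. The reference annotation places 1 antisense noncoding gene over Cck (Gm69828), 2 over Penk (Gm70307 and A830012C17Rik), and 0 other genes over the remaining members. Reads from an antisense transcript cannot be told apart from those of the member, since the strand setting of the counting is not stated.

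Per kilobase of gene length, the scale on which levels of different genes can be compared, Sst and Cck stood at the top. Over the 31 libraries the Sst level per kilobase had a median of 548 CPM (385 to 779.9), and that of Cck a median of 519.9 (392 to 788), so this pair did not differ beyond its spread. Npy followed with a median of 191 CPM per kilobase (119.9 to 318), below the lowest Sst and Cck library in each of the 31. Penk had a median of 77.6 CPM per kilobase but ran from 22.3 to 478, which overlapped the ranges of Npy, Sst and Cck above it and of Cort below it. Cort, at a median of 22.1 CPM per kilobase (13.5 to 38.8), overlapped Vip at 11.8 (7.53 to 14.7). Pdyn at 9.93 (4.38 to 22.1), Tac1 at 7.39 (3.01 to 37.4) and Crh at 7.07 (5.01 to 10.4) overlapped Vip and each other, Pdyn also overlapped Cort, and Tac1 overlapped Cort and Penk. By their spread over all 31 libraries, pooled over groups whose medians differ, the members fell into a steady and an unsteady group. The ratio of the highest to the lowest CPM was 21.5 for Penk, 12.4 for Tac1 and 5.05 for Pdyn, and between 1.95 (Vip) and 2.87 (Cort) for the other 6. Within groups the split was less clear. In AL males, IF males, AL females and IF females the ratio was 3.09, 1.39, 1.70 and 2.64 for Pdyn. For Tac1 it was 8.31, 3.07, 2.01 and 2.79, and for Penk 17.9, 3.71, 5.54 and 3.71. For the other 6 it lay between 1.26 (Crh, IF males) and 2.06 (Cort, AL females).

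**Figure D1:**
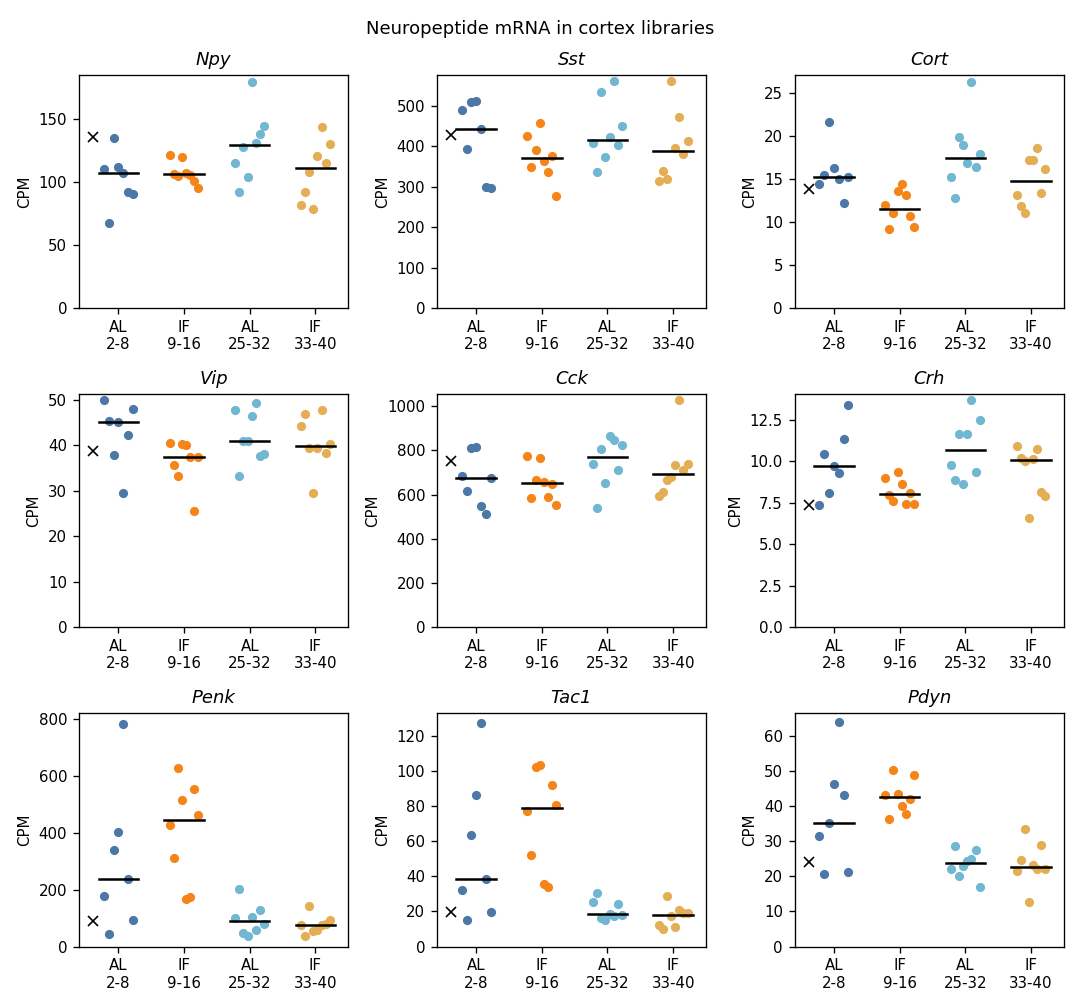
CPM of each of the 9 genes in the 31 cortex libraries, by diet and set, with a dot for each library, a bar at the group median and a cross for the library labelled AL mouse 1. Cort sits lower in IF than in AL males with overlapping dots, and Penk, Tac1 and Pdyn spread most in AL males.

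Cort was the member that fell with fasting in mice 1 to 16. In AL males it had a lowest level of 12.2 CPM (mouse 7), a median of 15.3 and a highest of 21.7 (mouse 4), against 9.16 (mouse 10), 11.5 and 14.4 (mouse 13) in IF males. Each of the 8 IF libraries lay under the AL median, and 5 of them under the lowest AL library, yet the groups overlapped. By the edgeR quasi-likelihood test across all genes, Cort fell by 0.42 on the log2 scale (SE 0.12, 95% interval -0.66 to -0.17, n = 7 and 8), a fold of 0.749 with an adjusted p of 0.0379. Fewer cells that make a peptide and less RNA per cell cannot be told apart in these tissue libraries. The call was lost when the library labelled AL mouse 1, with 13.9 CPM of Cort, was added (-0.40, adjusted p 0.0691) and when AL mouse 2 and IF mouse 10 were left out together (-0.40, adjusted p 0.0958). It was also lost when any of 9 of the 15 libraries was left out. These were AL mouse 2 (adjusted p 0.0598), AL mouse 3 (0.0629), AL mouse 4 (0.0767), AL mouse 5 (0.0676), IF mouse 9 (0.0543), IF mouse 10 (0.0674), IF mouse 11 (0.0659), IF mouse 15 (0.0631) and IF mouse 16 (0.0665). The difference itself stayed between -0.48 and -0.32 over the 15 omissions.

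Of the 9 members, 1 was called in mice 1 to 16, beside 1332 of 18462 genes tested (7.21%), so the members' share was near that of all genes. At an unadjusted p under 0.05 the members were 3 (Cort, Crh and Vip), beside 4400 genes (23.8%). No member had groups that did not overlap, so 0 of 9 stood against 1.01% of the genes tested. The number of genes called moved with single libraries. It was 638 without AL mouse 2, 766 without AL mouse 3, 771 without AL mouse 5, 877 without IF mouse 11, 866 without IF mouse 13, 823 without IF mouse 14 and 2060 without IF mouse 12, and 294 with the library labelled AL mouse 1.

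The other peptides of interneurons had lower medians in IF males or about the same ones, and none of them passed the test. Sst ran from 297 CPM (mouse 8) over a median of 443 to 512 (mouse 5) in AL males, and from 277 (mouse 16) over 369.9 to 458 (mouse 12) in IF males. Vip ran from 29.5 (mouse 6) over 45.2 to 50.1 CPM (mouse 2) in AL males, and from 25.6 (mouse 15) over 37.5 to 40.5 (mouse 9) in IF males. The IF libraries lay under the AL median in 7 of 8 cases for Sst and 8 of 8 for Vip, with overlap between the groups. Crh ran from 7.38 (mouse 2) over 9.73 to 13.4 CPM (mouse 8) in AL males, and from 7.42 (mouse 16) over 8.02 to 9.34 (mouse 12) in IF males. Here 8 of 8 IF libraries were under the AL median and 4 AL libraries were above the highest IF library. Npy had a median of 107 CPM in AL males (67.9 in mouse 3 to 135 in mouse 4), and IF males had 106.5 (95.4 in mouse 16 to 122 in mouse 9), inside the AL range. In edgeR the log2 differences were -0.16 for Sst (SE 0.13, adjusted p 0.501), -0.22 for Vip (SE 0.10, adjusted p 0.206), -0.27 for Crh (SE 0.11, adjusted p 0.141) and 0.09 for Npy (SE 0.11, adjusted p 0.665).

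Cck, which pyramidal cells and a class of interneurons both make, had nearly level groups. Its median was 675 CPM in AL males (512 in mouse 7 to 816 in mouse 5) and 653 in IF males (552 in mouse 16 to 774 in mouse 9). The groups overlapped along nearly their whole length, and the log2 difference was -0.01 (SE 0.10, adjusted p 0.966), with 6 of 8 IF libraries below the AL median.

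Penk, Tac1 and Pdyn had higher medians in IF males, and none passed the test. Penk ran from 43.6 CPM (mouse 3) over a median of 236 to 782 (mouse 6) in AL males, and from 168 (mouse 13) over 444 to 625.1 (mouse 11) in IF males. Tac1 ran from 15.3 (mouse 3) over 38.7 to 127 CPM (mouse 6) in AL males, and from 33.7 (mouse 14) over 78.9 to 104 (mouse 12) in IF males. Pdyn ran from 20.7 (mouse 3) over 35.3 to 63.8 CPM (mouse 6) in AL males, and from 36.3 (mouse 10) over 42.5 to 50.3 (mouse 11) in IF males. For each of these genes the lowest AL library was mouse 3 and the highest was mouse 6, and the IF range lay inside the AL range. IF libraries were above the AL median in 6 of 8 cases for Penk, 6 of 8 for Tac1 and 8 of 8 for Pdyn. The log2 differences in edgeR were 0.47 for Penk (SE 0.52, 95% interval -0.66 to 1.60, adjusted p 0.641), 0.42 for Tac1 (SE 0.45, interval -0.55 to 1.39, adjusted p 0.625) and 0.20 for Pdyn (SE 0.21, interval -0.24 to 0.64, adjusted p 0.596). Leaving out AL mouse 6 gave 0.93 for Penk, 0.78 for Tac1 and 0.38 for Pdyn, and leaving out AL mouse 3 gave 0.27, 0.25 and 0.09.

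These opioid and tachykinin genes moved with the striatal markers in the same libraries. The summed level of 14 genes that mark striatal spiny neurons ran from 315 CPM (mouse 8) over 1135 to 2686 (mouse 6) in AL males, from 845 (mouse 13) over 1813 to 2555 (mouse 11) in IF males, from 314 (mouse 28) over 380.0 to 962 (mouse 26) in AL females, and from 287 (mouse 33) over 388 to 707 (mouse 35) in IF females. Ppp1r1b, the spiny-neuron phosphoprotein DARPP-32, was the most abundant of the 14, with group medians of 364, 652, 170.1 and 163 CPM, and none of the 14 was at 0 in all 31 libraries. In mice 1 to 16 the markers were higher in IF for 14 of 14 genes, with 0 called and a median log2 difference of 0.64, beside -0.0049 over all genes. Across the 31 libraries, with group means removed, the mean of the striatal markers followed Penk with r = 0.924 (rho = 0.933, r = 0.916 without the 2 farthest libraries), Tac1 with r = 0.878 (rho = 0.865, then 0.835) and Pdyn with r = 0.765 (rho = 0.699, then 0.654). The mean of 6 markers of basal forebrain cholinergic neurons followed the same genes nearly as closely or more so, Penk with r = 0.891 (rho = 0.906, then 0.861), Tac1 with r = 0.841 (rho = 0.849, then 0.776) and Pdyn with r = 0.791 (rho = 0.699, then 0.691). The values of a pair come from the same library, its depth and its dissection. With the striatal marker level as a covariate, chosen after seeing the data, the log2 differences in mice 1 to 16 turned to -0.25 for Penk (adjusted p 0.523), -0.22 for Tac1 (0.569) and -0.11 for Pdyn (0.486), and Cort stood at -0.40 (0.0941), past the threshold no longer. The part of the striatal markers in these results was not tested beyond that fit.

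**Figure D2:**
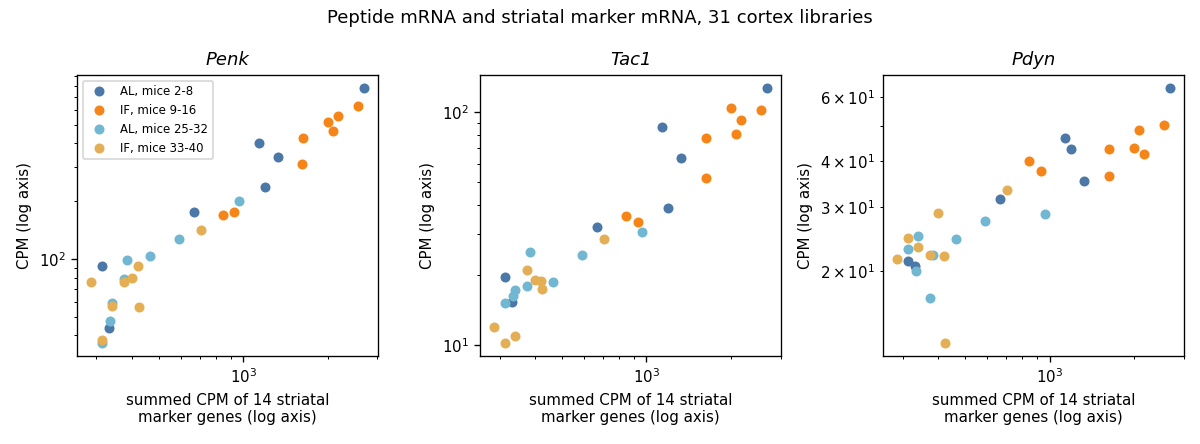
CPM of Penk, Tac1 and Pdyn against the summed CPM of the 14 striatal markers, both on log axes, with a point for each of the 31 cortex libraries coloured by group. The libraries with the highest marker sums, AL mouse 6 and IF mouse 11, are among the highest for each of the 3 genes.

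Markers of other tissues and cells varied between libraries as well. The 6 cholinergic markers summed to medians of 6.82 CPM in AL males (1.04 to 22.6), 12.5 in IF males (4.14 to 17.3), 1.88 in AL females (0.584 to 6.10) and 1.45 in IF females (0.358 to 4.13), and Slc18a3, the vesicular acetylcholine transporter, was the most abundant. Olfactory bulb markers (5 genes, Doc2g the most abundant) reached 115.9 CPM in AL mouse 8 and 98.5 in IF mouse 33, against a median of 11.6 over the 31 libraries. AL mouse 5 was the other library above 3 times that median. Choroid plexus markers (5 genes, Ttr, a thyroid hormone carrier, the most abundant) had a median of 27.9 CPM and reached 3161 in AL mouse 4, 3469 in IF mouse 11 and 4377 in IF mouse 36. AL mice 2 and 27 and IF mice 14 and 34 were also above 3 times that median. Hippocampus markers (7 genes, Fibcd1 the most abundant) reached 169 CPM in IF mouse 36, against a median of 25.4. These libraries were left out in fits added after seeing the data. Without AL mice 5 and 8, Cort stood at -0.42 in mice 1 to 16 (adjusted p 0.0958), and without AL mice 2 and 4 and IF mice 11 and 14 it stood at -0.35 (adjusted p 0.236, with 76 genes called). No marker of these 4 lists was at 0 in all 31 libraries, and their part in the result was not tested further.

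The remaining marker lists gave the cell types of the cortex. Their calls in mice 1 to 16 stand beside 7.21% of all genes tested. Excitatory neuron markers (12 genes, Camk2a the most abundant) summed to a median of 5231 CPM and interneuron markers (21 genes, Lamp5 the most abundant) to 1392. In mice 1 to 16 the excitatory list had 6 genes higher and 6 lower in IF, with 0 called. Of the interneuron list 16 of 21 were lower and 2 were called, Nxph1, a synaptic ligand of interneurons, and Nos1, the neuronal nitric oxide synthase. Oligodendrocyte markers (4 genes) had medians of 4468 CPM in AL males, 6528 in IF males, 5773 in AL females and 5351 in IF females, with Mbp, a myelin protein, the most abundant. Of these, 3 of 4 rose in IF males. Mbp rose by 0.59 (adjusted p 0.0091, 8 of 8 IF libraries above the AL median), Mog by 0.53 (0.00194, 8 of 8, with groups that did not overlap) and Mag by 0.37 (0.0269, 7 of 8). Of 4 astrocyte markers Aqp4, a water channel, fell by 0.51 (adjusted p 0.00258, 8 of 8 below), and Slc1a3 was the most abundant. Of 8 activity-induced genes, with Egr1 the most abundant, Bdnf, a neurotrophin, fell by 0.46 (adjusted p 0.0249, 8 of 8 below), and all 8 were lower in IF males. Mag was not called without AL mouse 2 (0.0621), AL mouse 5 (0.059), IF mouse 14 (0.0502) or IF mouse 15 (0.0502), and Bdnf not without IF mouse 14 (0.0501). With the library labelled AL mouse 1, Mbp (0.0669), Mag (0.174) and Bdnf (0.146) were not called.

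Lists with 0 called genes in mice 1 to 16 were those of microglia (4 genes, Csf1r the most abundant), thalamus (6, Slc17a6), hypothalamus (3 of 6 tested, Pomc), hippocampus (6 of 7), cholinergic neurons (6), olfactory bulb (3 of 5), choroid plexus (5), blood (5, Hbb-bs), liver (2 of 4, Ttr), skeletal muscle (2 of 4, Acta1), striatum (14), excitatory neurons (12) and the sex-linked genes (4 of 5). Among these lists olfactory bulb had the median log2 difference farthest from 0 (3 of 3 tested lower, -1.32). Cholinergic neurons (5 of 6 higher, 0.66), striatum (14 of 14 higher, 0.64) and choroid plexus (5 of 5 higher, 0.39) came next. Yet the summed choroid plexus level had a lower median in IF (20.2 CPM) than in AL males (36.1), with IF mouse 11 at 3469. Olfactory bulb medians were 12.2 CPM in IF and 15.2 in AL males, with AL mouse 8 at 115.9 and the next at 110. Hypothalamic markers summed to between 2.90 and 7.37 CPM over the 31 libraries. Medians of the summed level were 175.6 CPM for microglia, 51.0 for thalamus, 536 for astrocytes, 260.0 for blood, 22.7 for liver, 19.4 for skeletal muscle and 1247 for activity-induced genes. Across the 31 libraries with group means removed, the list means with r beyond 0.5 on either side, a limit set after seeing the data, were these besides the striatal and cholinergic ones given for Penk, Tac1 and Pdyn. Astrocyte markers had r = -0.697 with Npy (rho = -0.632, then -0.683), -0.603 with Penk (rho = -0.619, then -0.581), -0.591 with Tac1 (rho = -0.616, then -0.515) and -0.568 with Pdyn (rho = -0.429, then -0.541). Blood markers had r = 0.611 with Cck (rho = 0.642, then 0.593), 0.536 with Npy (rho = 0.533, then 0.474) and 0.519 with Sst (rho = 0.582, then 0.542). Hippocampus markers had r = -0.547 with Pdyn (rho = -0.374, then -0.405) and -0.503 with Npy (rho = -0.392, then -0.438), and striatal markers -0.527 with Vip (rho = -0.47, then -0.395). Muscle markers, 2 genes, had r = 0.521 with Cck (rho = 0.589, then 0.549), 0.502 with Vip (rho = 0.371, then 0.343) and -0.503 with Pdyn (rho = -0.376, then -0.353). The receptor list had r = -0.583 with Cck (rho = -0.477, then -0.449) and -0.508 with Npy (rho = -0.448, then -0.376), and the list of other neuropeptides 0.584 with Sst (rho = 0.585, then 0.635). The part of these cell types in the members' levels was not tested beyond these correlations.

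In mice 25 to 40 none of the members was called. Cort ran from 12.8 CPM (mouse 26) over a median of 17.4 to 26.3 (mouse 30) in AL females, and from 11.1 (mouse 35) over 14.8 to 18.6 (mouse 38) in IF females. Of the 8 IF libraries 7 were under the AL median and 2 under the lowest AL library, and the groups overlapped. In edgeR the log2 difference of Cort was -0.29 (SE 0.14, 95% interval -0.59 to 0.01, adjusted p 0.452, n = 8 and 8). Crh ran from 8.63 (mouse 28) over 10.7 to 13.7 CPM (mouse 30) in AL females and from 6.61 (mouse 36) over 10.1 to 10.9 (mouse 33) in IF females, a difference of -0.22 (SE 0.12, adjusted p 0.492, 6 of 8 below). Npy ran from 92.5 (mouse 26) over 129.8 to 179.9 CPM (mouse 29) in AL females and from 78.8 (mouse 36) over 112 to 144 (mouse 38) in IF females, a difference of -0.25 (SE 0.15, adjusted p 0.514, 6 of 8 below). The diets overlapped for each of these 3 genes.

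Sst ran from 335 CPM (mouse 26) over a median of 415 to 562 (mouse 30) in AL females and from 315 (mouse 33) over 388 to 562 (mouse 36) in IF females (log2 difference -0.13, SE 0.14, adjusted p 0.705, 6 of 8 below). Vip ran from 33.2 (mouse 26) over 40.9 to 49.4 CPM (mouse 30) in AL females and from 29.6 (mouse 36) over 39.9 to 47.8 (mouse 38) in IF females (-0.04, SE 0.09, adjusted p 0.877, 5 of 8 below). Cck ran from 541 (mouse 26) over 772 to 866 CPM (mouse 29) in AL females and from 594 (mouse 33) over 695 to 1029 (mouse 38) in IF females (-0.06, SE 0.12, adjusted p 0.863, 7 of 8 below). Mouse 26 was the lowest AL female for each of these and for Cort and Npy, and the diets overlapped throughout.

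The opioid and tachykinin genes were low in both female groups. Penk ran from 36.4 CPM (mouse 28) over a median of 88.7 to 201 (mouse 26) in AL females and from 37.96 (mouse 34) over 75.8 to 141 (mouse 35) in IF females. Tac1 ran from 15.2 (mouse 28) over 18.4 to 30.6 CPM (mouse 26) and from 10.2 (mouse 34) over 18.1 to 28.5 (mouse 35). Pdyn ran from 16.8 (mouse 32) over 23.7 to 28.7 CPM (mouse 26) and from 12.6 (mouse 36) over 22.7 to 33.4 (mouse 35). The highest libraries, mice 26 and 35, were also those with the highest striatal marker sums of their groups. In edgeR the log2 differences were -0.29 for Penk (SE 0.33, adjusted p 0.737, 6 of 8 below), -0.26 for Tac1 (SE 0.20, adjusted p 0.608, 4 of 8 below) and 0.01 for Pdyn (SE 0.14, adjusted p 0.992, 5 of 8 below).

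In this set edgeR called 0 of 9 members beside 2 of 18403 genes (0.0109%), with 0 members and 2069 genes at an unadjusted p under 0.05, and DESeq2 called 0 members and 64 genes. Of the 9 members 8 had negative differences and 1 a positive difference, where the median over all genes was 0.0031. With the share of short genes as a covariate, chosen after seeing the data, 6 were negative and 3 (Sst, Vip and Cck) positive, and Cort stood at -0.04. Groups of 0 members did not overlap, beside 0.0435% of genes. The 2 genes called, mt-Atp6 (-2.43, adjusted p 0.0434) and Gm11263 (-1.15, adjusted p 0.0434), are named after their values were seen. Without AL mouse 26 there were 254 genes called, and without each of the other libraries between 0 and 2. In every list described above and below 0 genes were called in mice 25 to 40. The striatal list had 2 of its 13 tested genes higher and 11 lower in IF, with a median of -0.33. The lists with the medians farthest from 0 were choroid plexus (5 of 5 higher, 2.40), liver (1 of 2 tested higher, 2.01), olfactory bulb (4 of 4 tested higher, 0.91), cholinergic neurons (2 of 2 tested lower, -0.50) and hypothalamus (3 of 4 tested higher, 0.49). Yet the summed choroid plexus level had a lower median in IF (12.1 CPM) than in AL females (21.7), with IF mouse 36 at 4377 and the next at 1594. The liver list had 9.17 and 18.9 CPM, with IF mouse 36 at 4270. Olfactory bulb medians were 11.4 in IF and 11.8 CPM in AL females, with IF mouse 33 at 98.5. The interneuron list had 13 higher and 8 lower (median 0.12), the excitatory list 9 higher and 3 lower (0.05), the oligodendrocyte list 4 of 4 lower (-0.26), the astrocyte list 4 of 4 higher (0.06) and the activity-induced list 3 higher and 5 lower (-0.47).

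Whether the fasting difference itself differed between the sets was tested as an interaction over the 31 libraries. None of the 9 members was called (0 at an unadjusted p under 0.05, 0 by DESeq2), beside 397 of 19547 genes (2.03%) and 3007 at an unadjusted p under 0.05. The widest interactions were those of Penk at -0.75 (SE 0.62, 95% interval -2.02 to 0.52, adjusted p 0.606) and Tac1 at -0.67 (SE 0.50, interval -1.69 to 0.34, adjusted p 0.558). For Npy it was -0.34 (SE 0.20, adjusted p 0.438) and for Cort 0.14 (SE 0.20, interval -0.27 to 0.54, adjusted p 0.797). The 4 lay within intervals that hold 0, which does not show that the sets respond alike. The number of genes called was 224 without AL mouse 2, 243 without AL mouse 3, 245 without AL mouse 5, 241 without IF mouse 14, 251 without AL mouse 29, 240 without AL mouse 31, 220 without AL mouse 32 and 244 without IF mouse 33.

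With both sets in a fit that held the set as a term, Cort fell by 0.35 on the log2 scale (SE 0.10, 95% interval -0.55 to -0.15, n = 31), a fold of 0.784, with an adjusted p of 0.0337 in edgeR. The IF libraries under the AL median of their set were 8 of 8 males and 7 of 8 females. Cort was the 1 member of 9 called, beside 912 of 18995 genes (4.8%), and at an unadjusted p under 0.05 the members were 2, Cort and Crh, beside 4015 genes (21.1%). Crh stood at -0.24 (SE 0.08, adjusted p 0.0769, 14 of 16 IF libraries under the AL median of their set), and DESeq2 called it (0.0447), as did edgeR without AL mouse 26 (0.0362). The other 7 had adjusted p from 0.309 (Vip, -0.13) to 0.921 (Penk, 0.07).

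The call of Cort over both sets was lost without any of 11 libraries. These were AL mouse 3 (adjusted p 0.0515), AL mouse 4 (0.0666), AL mouse 5 (0.0566), IF mouse 10 (0.0544), IF mouse 11 (0.0536), IF mouse 16 (0.0518), AL mouse 27 (0.0535), AL mouse 30 (0.0581), IF mouse 34 (0.0531), IF mouse 35 (0.0547) and IF mouse 39 (0.0509). The log2 difference stayed between -0.38 and -0.30. It was -0.34 with the library labelled AL mouse 1 (adjusted p 0.05), -0.31 with the striatal marker level as a covariate (0.0648) and -0.29 without the libraries high in choroid plexus markers (0.253). The call was also lost with no filter on low counts (0.0642), with the share of short genes as a covariate (0.0819), without AL mouse 2 and IF mouse 10 (0.074) and without the libraries high in olfactory bulb markers (0.0825). The count of genes called was 498 without AL mouse 2, 524 without AL mouse 3, 544 without AL mouse 4, 524 without AL mouse 5, 582 without IF mouse 11, 1402 without IF mouse 12, 581 without IF mouse 14 and 1928 without AL mouse 26.

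**Figure D3:**
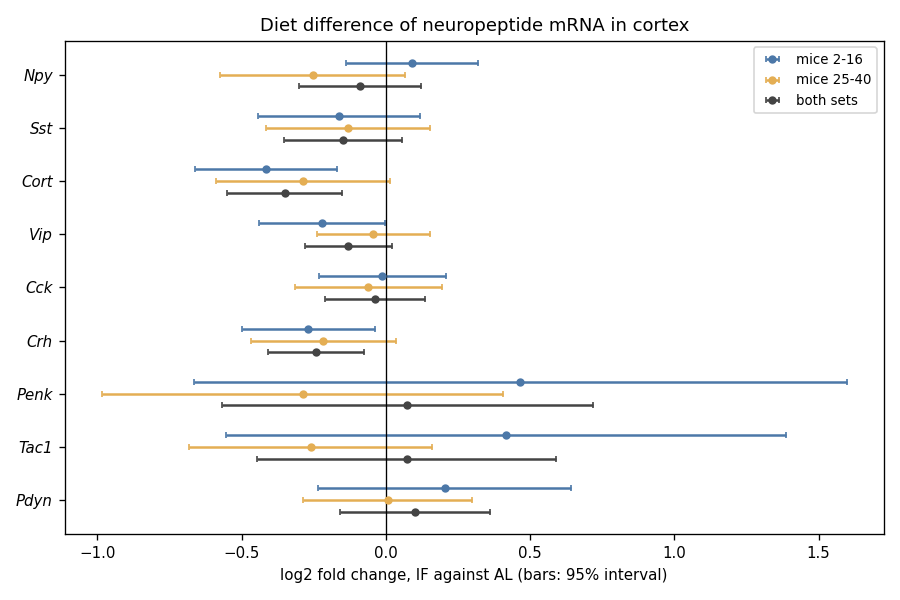
Log2 fold change of each of the 9 genes, IF against AL, with 95% intervals, in mice 2 to 16, in mice 25 to 40 and in both sets. The intervals of Cort and Crh lie below 0 in mice 2 to 16 and in both sets, that of Vip lies below 0 in mice 2 to 16, and all 9 hold 0 in mice 25 to 40. Those of Penk and Tac1 are the widest. Of these genes Cort passed the adjusted test.

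Among fed mice 1 of the 3 opioid and tachykinin precursors, Tac1, differed between the sets in edgeR. All 8 AL females lay under the AL male median for Tac1, Penk and Pdyn, while 5, 4 and 5 of the 7 males lay above the highest female, and the ranges overlapped. In edgeR Tac1 was lower in females by a log2 difference of -1.41 (SE 0.41, 95% interval -2.29 to -0.53, adjusted p 0.04, n = 7 and 8). Penk stood at -1.67 (SE 0.55, interval -2.84 to -0.49, adjusted p 0.0665) and Pdyn at -0.68 (SE 0.21, interval -1.13 to -0.22, adjusted p 0.052). DESeq2 called all 3, with adjusted p of 0.00665, 0.0154 and 0.0241, beside 2779 genes called among 35615 with at least 1 count. That total can include genes that DESeq2 filters out before adjustment, so it gives no share of genes tested. Of the 9 members 1 was called in edgeR, beside 2082 of 18467 genes (11.3%), with 4 at an unadjusted p under 0.05 (Npy, Tac1, Penk and Pdyn), beside 4913 genes (26.6%). Groups of 0 members did not overlap, beside 1.81% of genes. Sex, set, handling and sequencing batch cannot be told apart here.

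The call of Tac1 between fed sets was lost without AL mouse 4 (adjusted p 0.0643), AL mouse 5 (0.0845), AL mouse 6 (0.0703), AL mouse 25 (0.0512), AL mouse 27 (0.0716), AL mouse 28 (0.0686), AL mouse 29 (0.0719), AL mouse 30 (0.0697), AL mouse 31 (0.0615) and AL mouse 32 (0.0731), with log2 differences from -1.58 to -1.06 over the 15 omissions. It was also lost with no filter on low counts (0.0797), with the replicate number as a block (-1.11, 0.172) and without the libraries high in olfactory bulb (0.0598) or choroid plexus markers (0.119). Penk gained a call without AL mouse 3 (0.0303) or AL mouse 26 (0.0429), and Pdyn without AL mouse 3 (0.019) or AL mouse 8 (0.0226). With the library labelled AL mouse 1, whose Tac1 was 19.7 CPM, Penk 90.8 and Pdyn 24.2, the differences were -1.29 (0.0924), -1.54 (0.124) and -0.61 (0.107). All 14 striatal markers were lower in fed females, with a median of -1.66 beside 0.0027 over all genes, and 1 was called. It was Pde10a, a phosphodiesterase of spiny neurons (-1.50, adjusted p 0.0489, 8 of 8 below), named after its value was seen. Interneuron markers were lower in females for 17 of 21 genes (median -0.19, 1 called higher and 4 lower), cholinergic for 3 of 3 tested (-1.53, 0 called), olfactory bulb for 4 of 4 tested (-1.64, 1 called) and choroid plexus for 5 of 5 (-1.78, 1 called). Oligodendrocyte markers were higher for 4 of 4 (0.51, 3 called) and hippocampus markers for 6 of 6 tested (0.46, 1 called). Astrocyte markers had 2 higher and 2 lower (0.07, 2 called higher). Excitatory neuron markers had 7 higher and 5 lower (0.06, 1 called higher and 1 lower). Thalamus markers had 4 higher and 2 lower (0.14, 1 called lower), and activity-induced genes 3 higher and 5 lower (-0.03, 1 called lower). With the striatal marker level as a covariate, chosen after seeing the data, the differences were -0.33 for Tac1 (0.386), -0.27 for Penk (0.455) and -0.16 for Pdyn (0.48). The other 6 members had adjusted p from 0.165 (Npy, 0.35, 6 of 8 females above the male median) to 0.922 (Vip, -0.02, 5 of 8 below).

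Other genes of peptide signalling were read from fixed lists. The calls given for them stand beside shares of all genes tested in edgeR. These were 7.21% in mice 1 to 16, 4.8% over both sets and 11.3% between the fed sets. Of 14 other neuropeptide genes 12 were tested in mice 1 to 16, and 11 had negative differences and 1 a positive difference (median -0.45, beside -0.0049 over all genes), with 1 called. It was Nmb, the precursor of neuromedin B, which ran from 4.60 over 7.10 to 10.97 CPM in AL males and from 3.16 over 4.36 to 5.18 in IF males. All 8 IF libraries were under the AL median, with some overlap. Nmb fell by 0.71 on the log2 scale (SE 0.18, adjusted p 0.0228), and the call was lost without AL mouse 2 (0.0501) or AL mouse 5 (0.0524) and in 6 of 10 other settings. These were the library labelled AL mouse 1 added (0.0661), AL mouse 2 and IF mouse 10 left out (0.0579), the replicate block (0.0738), the striatal covariate (0.0868) and the fits without libraries high in olfactory bulb (0.119) or choroid plexus markers (0.19). In mice 25 to 40 Nmb stood at 0.16 (adjusted p 0.785), and 5 of 11 tested genes of the list were higher and 6 lower. The list summed to a median of 716 CPM over the 31 libraries, most of it from Vgf, a granule protein cleaved into several peptides, at 635.

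Of 20 receptor genes 17 were tested in mice 1 to 16, with 6 higher, 11 lower and 1 called (median -0.14). Oprd1, the delta opioid receptor on which enkephalins act, ran from 1.59 over 1.74 to 3.05 CPM in AL males and from 1.55 over 4.51 to 6.77 in IF males, with 7 of 8 IF libraries above the AL median. It rose by 1.07 (SE 0.24, adjusted p 0.0149) and was called in each of the 15 omissions (0.94 to 1.19), but not with the library labelled AL mouse 1 (0.79, adjusted p 0.132), without AL mouse 2 and IF mouse 10 (0.89, 0.0595), with the replicate block (1.05, 0.0615) or without the libraries high in choroid plexus markers (0.93, 0.199). In mice 25 to 40 it stood at 0.44 (adjusted p 0.679, 7 of 8 above), and 11 of the 16 receptor genes tested were higher and 5 lower (median 0.13). Cckbr, the cholecystokinin receptor of the brain, was the most abundant receptor gene, at 94.2 CPM of a summed median of 273.

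Over both sets 1 receptor gene was called, Vipr1, a receptor of vasoactive intestinal peptide. It ran from 19.7 over 21.3 to 36.3 CPM in AL males, from 21.96 over 34.99 to 46.2 in IF males, from 25.1 over 29.3 to 40.9 in AL females and from 23.1 over 34.9 to 41.2 in IF females. IF libraries were above the AL median of their set in 8 of 8 males and 6 of 8 females. Vipr1 rose by 0.33 (SE 0.10, adjusted p 0.0484). The call was lost without any 1 of AL mice 2 to 6, IF mice 9, 10, 11, 13, 14 and 16, AL mice 25, 27, 29, 30, 31 and 32, and IF mice 34, 35, 37, 39 and 40, with adjusted p from 0.054 to 0.0874, and with the library labelled AL mouse 1 (0.0998).

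Of 18 genes that process peptides or build their granules 18 were tested, 7 higher and 11 lower in IF males (median -0.02), with 1 called. Cpd, a carboxypeptidase of the secretory pathway, ran from 50.1 over 57.5 to 61.9 CPM in AL males and from 44.4 over 48.6 to 54.3 in IF males, with 8 of 8 IF libraries below the AL median. It fell by 0.20 (SE 0.06, adjusted p 0.0396). The call was lost without AL mouse 2 (0.091), AL mouse 3 (0.0659), AL mouse 5 (0.0706), AL mouse 8 (0.0501), IF mouse 9 (0.052), IF mouse 10 (0.0615), IF mouse 11 (0.076), IF mouse 14 (0.0681) or IF mouse 15 (0.0655). It was also lost in 7 of 10 other settings, with the library labelled AL mouse 1 (0.122), without AL mouse 2 and IF mouse 10 (0.128), with no filter on low counts (0.0859), the replicate block (0.109) or the striatal covariate (0.161), and without the libraries high in olfactory bulb (0.107) or choroid plexus markers (0.267). Cpe, the carboxypeptidase that trims most neuropeptides, was the most abundant gene of the list, at 1990.4 CPM of a summed median of 5810.2. In mice 25 to 40 the list had 8 genes higher and 10 lower.

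The called interneuron markers were lower in IF males. Nxph1 ran from 20.7 over 23.3 to 27.3 CPM in AL males and from 14.7 over 20.2 to 22.2 in IF males, and fell by 0.27 (SE 0.08, adjusted p 0.0414, 8 of 8 below the AL median). Nos1 ran from 28.5 over 37.2 to 40.9 CPM in AL males and from 25.3 over 27.5 to 34.96 in IF males, and fell by 0.31 (SE 0.09, adjusted p 0.0398, 8 of 8 below). The groups overlapped for both genes. Nxph1 was not called without AL mouse 2 (0.102), AL mouse 3 (0.0832), AL mouse 5 (0.0581), AL mouse 6 (0.0506), IF mouse 9 (0.0613), IF mouse 11 (0.065), IF mouse 13 (0.0551), IF mouse 14 (0.0624) or IF mouse 15 (0.0703). Nos1 was not called without AL mouse 2 (0.0939), AL mouse 3 (0.0801), AL mouse 5 (0.0889), AL mouse 8 (0.06), IF mouse 9 (0.0629), IF mouse 10 (0.0627), IF mouse 13 (0.0615), IF mouse 14 (0.0728), IF mouse 15 (0.0506) or IF mouse 16 (0.0681). With the library labelled AL mouse 1 their adjusted p were 0.0828 and 0.122. In mice 25 to 40 Nxph1 stood at 0.06 (0.646) and Nos1 at 0.48 (0.462), and the interaction was called for Nxph1 (0.34, adjusted p 0.0465, lost in 20 of 31 omissions of a library) and for Pvalb, a marker of fast-spiking interneurons (-0.90, adjusted p 0.0336, lost in 10 of 31), the latter named after its value was seen. Without the libraries high in choroid plexus markers 8 of the 10 listed genes called in mice 1 to 16 lost their call (adjusted p 0.0711 to 0.267), and Aqp4 and Mog kept theirs.

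Between the fed sets 4 of 17 tested receptor genes were called, named here after their values were seen. Crhr1, the main receptor of corticotropin-releasing hormone, was higher in females (0.33, adjusted p 0.0234, 8 of 8 above the male median). Lower in females were Tacr1, the substance P receptor (-1.61, adjusted p 0.0192, 8 of 8 below), Tacr3, the neurokinin B receptor (-0.86, adjusted p 0.0433, 7 of 8 below), and Vipr2, a further receptor of vasoactive intestinal peptide (-2.79, adjusted p 0.0389, 6 of 8 below). Vipr2 had medians of 0.508 CPM in AL males and 0.364 in AL females, with 1 male at 8.99. Of 18 processing genes 2 were called, both lower, the convertase Pcsk1 (-0.65, adjusted p 0.0218, 8 of 8 below) and the peptidase Mme (-1.03, adjusted p 0.0101, 8 of 8 below). Of 12 other neuropeptide genes tested 0 were called by edgeR, with 6 higher and 6 lower. All 5 sex-linked genes were called.

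Of the members 7 varied together across libraries in 2 blocks, drawn after seeing the values, as a description over 31 libraries with group means removed. Tac1 and Penk had r = 0.932 (rho = 0.919, r = 0.897 without the 2 farthest libraries), Penk and Pdyn r = 0.737 (rho = 0.698, then 0.585), and Tac1 and Pdyn r = 0.705 (rho = 0.637, then 0.542). In the other block Npy and Cck had r = 0.771 (rho = 0.804, then 0.766), Npy and Sst r = 0.515 (rho = 0.604, then 0.483), Npy and Cort r = 0.489 (rho = 0.449, then 0.446), Sst and Cck r = 0.749 (rho = 0.779, then 0.792), Sst and Cort r = 0.748 (rho = 0.701, then 0.724), and Cck and Cort r = 0.726 (rho = 0.688, then 0.653). Vip and Crh were in neither block, and the highest r of each was with the other (r = 0.461, rho = 0.435, then 0.558). The points share library, depth and RNA preparation.

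The genes most like 8 members in this pattern differed between the blocks. Penk was most like Rgs9 (r = 0.955, rho = 0.951, then 0.927), Adora2a (r = 0.945) and Gnal (r = 0.941), and Tac1 most like Gnal (r = 0.95, rho = 0.916, then 0.922), Rgs9 (r = 0.93) and Ppp1r1b (r = 0.922). Rgs9, Adora2a and Ppp1r1b are in the striatal list. Pdyn was most like Ptprv (r = 0.869, rho = 0.817, then 0.819), Cd4 (r = 0.834) and Slc18a3 (r = 0.825). Npy was most like Nrgn (r = 0.906, rho = 0.894, then 0.901), a calmodulin-binding protein of excitatory neurons, Galt (r = 0.885) and Tmem14a (r = 0.872). Sst was most like Iscu (r = 0.95, rho = 0.942, then 0.94), Ptms (r = 0.949) and Polr1d (r = 0.945), and Cck most like Psmb10 (r = 0.908, rho = 0.87, then 0.878), Gng3 (r = 0.904) and Tmem141 (r = 0.902). Vip was most like Vsnl1 (r = 0.776, rho = 0.621, then 0.736), Etl4 (r = 0.771) and Syt1 (r = 0.764), and Crh least like any gene, with Dusp14 at r = 0.653 (rho = 0.635, then 0.57), Etnk2 at 0.649 and Cdkn1a at 0.649.

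The share of counts from short genes varied between libraries, and is set here beside the members. Npy (566 bases), Cort (677) and Sst (721) are far shorter than the median tested gene (3754), and Cck has 1305 bases. The share of counts from 1909 other protein-coding genes under 1000 bases, a measure chosen after seeing the data, had medians of 2.48% in AL males (1.80 to 3.21), 2.44% in IF males (2.06 to 2.89), 2.77% in AL females (2.06 to 3.14) and 2.38% in IF females (2.09 to 2.91). Over the 31 libraries its correlation was highest for Sst with r = 0.853 (rho = 0.877, then 0.82), Cck with r = 0.783 (rho = 0.79, then 0.709), Cort with r = 0.661 (rho = 0.605, then 0.564) and Npy with r = 0.57 (rho = 0.592, then 0.52). For the other 5 it was r = 0.41 for Tac1 (3399 bases, rho = 0.431, then 0.543), 0.243 for Penk (1634, rho = 0.259, then 0.444), 0.047 for Crh (1320, rho = 0.073, then 0.024), 0.023 for Pdyn (2887, rho = 0.06, then 0.166) and -0.03 for Vip (3402, rho = 0.015, then -0.208). Crh is nearly as short as Cck. With the share as a covariate Cort had an adjusted p of 0.0181 in mice 1 to 16 and 0.0819 over both sets. Its part in the levels was not tested otherwise.

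Promoter sequences are shown for Sst, Cck, Cort and Npy, the members of the second block. They are the 250 bases before each gene's start, from RefSeq on GRCm38.p6, 5′ to 3′ on the strand of the gene. They lie at chr16:23890845-23891094 (minus strand) for Sst, chr9:121495695-121495944 (minus) for Cck, chr4:149126764-149127013 (minus) for Cort and chr6:49822460-49822709 (plus) for Npy. The table matched 7 of 9 members with 8 entries, and Penk and Crh have none. Capitals mark the cAMP response element TGACGTCA or its parts TGACG and CGTCA, searched on both strands. The parts are the reverse complement of each other and overlap inside the whole element.
Sst: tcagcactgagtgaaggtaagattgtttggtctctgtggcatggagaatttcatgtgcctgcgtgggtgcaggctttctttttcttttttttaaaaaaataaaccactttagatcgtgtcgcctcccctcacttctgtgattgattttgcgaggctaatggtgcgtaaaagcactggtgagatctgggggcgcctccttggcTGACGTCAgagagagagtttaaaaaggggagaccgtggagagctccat
Cck: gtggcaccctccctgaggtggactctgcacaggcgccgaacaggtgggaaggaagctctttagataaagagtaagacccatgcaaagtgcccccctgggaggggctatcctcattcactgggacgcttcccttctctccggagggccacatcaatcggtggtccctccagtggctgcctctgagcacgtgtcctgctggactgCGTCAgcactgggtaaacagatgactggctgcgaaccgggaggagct
Cort: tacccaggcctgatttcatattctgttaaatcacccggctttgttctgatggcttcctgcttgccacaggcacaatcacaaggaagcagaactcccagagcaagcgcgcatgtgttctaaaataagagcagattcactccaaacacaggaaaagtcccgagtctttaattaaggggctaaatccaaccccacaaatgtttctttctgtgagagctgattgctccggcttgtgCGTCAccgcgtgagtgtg
Npy: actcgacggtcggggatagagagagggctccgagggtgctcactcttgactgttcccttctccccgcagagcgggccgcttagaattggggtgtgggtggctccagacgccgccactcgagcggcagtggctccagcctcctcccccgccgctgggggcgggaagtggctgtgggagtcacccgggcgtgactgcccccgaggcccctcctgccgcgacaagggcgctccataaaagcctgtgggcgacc
Sst held the whole element 48 bases before its start, Cck a part 47 bases before and Cort a part 18 bases before, and Npy held none in this window. Among the others, Vip held a part 79 bases before its start, Tac1 parts at 197 and 43 bases, and the 2 Pdyn entries none. The whole element was in 1 member and at least a part in 5. Of 32851 promoters of this length 508 (1.55%) hold TGACGTCA and 5836 (17.8%) hold TGACG or CGTCA. A match is a description of letters and was not tested as a site.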

How the data were processed

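Poly-A RNA of 96 mouse tissue libraries was sequenced by the authors on an Illumina NovaSeq after dUTP directional preparation, aligned with Hisat2 to GRCm39 and counted with featureCounts, whose strand setting is not stated. The deposited table holds the raw read count of each gene in each library, per the labels 1 library for each tissue and mouse. Members and gene lists were chosen with earlier results of these data known. CPM is the count over the column total, and per kilobase values use the gene length in the table. Fits used 31 cortex libraries, without the library labelled AL mouse 1, whose sex-linked genes go against its label.

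Tests across all genes used edgeR 4.0.16 (limma 3.58.1, R 4.3.3), with TMM normalization, the default filter (minimum count 10, total 15), the robust quasi-likelihood F test, 2-sided, and Benjamini-Hochberg adjustment over all genes tested, called at 0.05. The SE is the log2 fold change over the square root of F, and 95% intervals use the t distribution at the fitted degrees of freedom. Correlations used log2 CPM with a prior count of 2. Group summaries and figures used Python 3.11.15, pandas 2.3.3 and matplotlib 3.10.9. The fits were checked on simulated counts with 200 genes changed by a known fold. The simulation gave every gene the same spread and no marker differences between libraries. Its changes were larger than those of the members between diets. It therefore does not measure how well these fits find the members' differences. The 95% intervals come from the fits and include the spread between libraries, while floors of 3 counts cover counting error only. Totals of 31231970 to 40235336 counts set the depth.

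Named genes are the 9 members, each listed gene called in a diet comparison (at most the 5 largest differences of a list), the most abundant gene of each marker list, and the 3 genes most like each member. The genes most like Cort are not reported here. The 21 lists hold the members, other neuropeptides, peptide receptors, processing and granule genes, sex-linked genes, activity-induced genes, and markers of 15 tissues or cell types.

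Alternatives were RLE size factors, DESeq2 1.42.0, no filter beyond 1 count, the library labelled AL mouse 1 added, AL mouse 2 and IF mouse 10 left out because they are absent from the paper's proteome tables, the replicate number as a block, and each library left out in turn. Chosen after seeing the data were the striatal marker level and the share of short genes as covariates, and fits without libraries whose summed olfactory bulb, choroid plexus or hippocampus markers exceeded 3 times the median. Liver and muscle libraries served for levels alone.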

Additional observations from a re-analysis of the deposited data

Results flagged for a closer look

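Cck in IF mouse 38 stood far above the other IF females, at 1029 CPM against 739 for the next. Chance alone singles out about 1 in 20 groups of such samples, and the members were looked at in 4 cortex groups each.

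Penk, a member of the cortical set, was also read in skeletal muscle, which the comparisons did not use, with a median of 4.57 CPM over 32 libraries. Crh in muscle had a median of 0.105 CPM, at the level of the 0.0602 to 0.106 CPM that 3 counts amount to in those libraries.

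The fasting difference of 8 listed genes differed between the sets by the edgeR interaction test, given here as the female minus the male log2 difference. Of all genes tested 2.03% were called. For the oligodendrocyte markers it was -0.73 for Mbp (adjusted p 0.0261), -0.83 for Mog (0.00703) and -0.66 for Mag (0.0174), where 8, 8 and 7 of 8 IF males lay above the AL median and 6, 8 and 8 of 8 IF females below it. For Aqp4 it was 0.55 (0.0319), for Bdnf 0.65 (0.0493) and for Nxph1 0.34 (0.0465), with 8 of 8 IF males below the AL median and 5, 6 and 5 of 8 IF females above it. For Pvalb, an interneuron marker, it was -0.90 (0.0336), with 7 of 8 IF males above and 8 of 8 IF females below. For Eomes, an olfactory bulb marker, it was 7.44 (0.0335), with 7 of 8 IF males below and 6 of 8 IF females above. Its group medians ran from 0.0283 to 0.192 CPM, and its highest library had 7.41 CPM in AL males and 8.48 in IF females. Pvalb and Eomes were named after their values were seen.

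Mog and Mag kept the interaction call in each omission of a library, and Mbp lost it without AL mouse 2 (0.0533). Aqp4 lost it without AL mouse 3, 5, 8, 29, 31 or 32 or IF mouse 11, 14, 33 or 36 (0.05 to 0.0602). Pvalb lost it without AL mouse 2, 3, 5, 29, 31 or 32 or IF mouse 14, 33, 35 or 36 (0.0509 to 0.0611), and Eomes, fitted in 27 of 31 omissions, without AL mouse 5, 8, 29, 31 or 32 or IF mouse 9, 11, 14 or 16 (0.0505 to 0.0658). Nxph1 lost it without AL mouse 2, 3, 5, 7, 25, 27, 29, 30, 31 or 32 or IF mouse 9, 11, 13, 14, 15, 33, 34, 35, 36 or 39 (0.0519 to 0.0948). Bdnf lost it without AL mouse 2, 3, 4, 5, 7, 8, 25, 26, 27, 29, 30, 31 or 32 or IF mouse 9, 11, 14, 15, 16, 33, 34, 35, 36, 37 or 39 (0.0514 to 0.0873). With the library labelled AL mouse 1 the calls of Bdnf (0.186), Mbp (0.118), Aqp4 (0.101), Pvalb (0.1), Nxph1 (0.1) and Mag (0.0942) were lost, Mog kept its call (0.0219) and Eomes was not fitted. Without the libraries high in choroid plexus markers, an alternative chosen after seeing the data, 8 of 8 lost the call (0.0648 to 0.324). Without those high in olfactory bulb markers, also chosen after, Mog kept it (0.0231), the other 6 fitted lost it (0.0818 to 0.162) and Eomes was not fitted. Of the 8 calls, the striatal covariate ended 7 (0.0572 to 0.216, all but Mog), no filter on low counts 5 (Pvalb, Nxph1, Eomes, Mbp and Bdnf), the fit without AL mouse 2 and IF mouse 10 and that without the library high in hippocampus markers 4 each (Pvalb, Nxph1, Aqp4 and Bdnf), the replicate block 3 (Nxph1, Eomes and Bdnf), RLE size factors 2 (Nxph1 and Bdnf) and the share of short genes as a covariate 1 (Bdnf). DESeq2 ended 0 (adjusted p 0.000128 to 0.0265).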

How the results depend on the processing

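Each library was left out in turn and 11 other settings were tried, 5 of them chosen after seeing the data, over the comparisons of mice 1 to 16 and of mice 25 to 40, their interaction, both sets together and the fed sets. Without the libraries named in the report the values moved as printed there. The cause was not tested for any change given here. The size of the groups, 7 or 8 libraries, and the depth of 31231970 counts or more limit the precision.

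Over the omissions of single libraries the number of genes called ran from 638 to 2060 in mice 1 to 16, from 0 to 254 in mice 25 to 40, from 220 to 521 for the interaction, from 498 to 1928 over both sets and from 1440 to 2492 between the fed sets. The number of members called ran from 0 to 1 in mice 1 to 16, from 0 to 2 over both sets and from 0 to 3 between the fed sets. Directions that turned in at least 1 omission belonged to differences near 0. Cck ran from -0.074 to 0.045 in mice 1 to 16 and from -0.14 to 0.010 for the interaction, Crh from -0.030 to 0.12 and Sst from -0.056 to 0.11 for the interaction, Pdyn from -0.075 to 0.096 and Vip from -0.092 to 0.0094 in mice 25 to 40, Penk from -0.032 to 0.26 and Tac1 from -0.021 to 0.22 over both sets, and Sst from -0.014 to 0.12 and Vip from -0.10 to 0.026 between the fed sets.

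With RLE size factors each member kept its direction and its side of the threshold in every comparison. DESeq2 called 2173 genes in mice 1 to 16, 64 in mice 25 to 40, 706 for the interaction, 1483 over both sets and 2779 between the fed sets, with 2 members over both sets (Cort and Crh) and 3 between the fed sets (Tac1, Penk and Pdyn). Without a filter beyond 1 count 220 genes were called for the interaction and 477 over both sets, with 0 members over both sets (Cort at an adjusted p of 0.0642) and 0 between the fed sets (Tac1 at 0.0797), and Pdyn turned to -0.0028 in mice 25 to 40. More genes are tested in that setting.

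With the library labelled AL mouse 1 there were 294 genes called in mice 1 to 16, 81 for the interaction, 367 over both sets and 682 between the fed sets, and 0 members in each. Without AL mouse 2 and IF mouse 10 there were 498, 184 and 391 genes in mice 1 to 16, the interaction and both sets, with 0 members in mice 1 to 16 (Cort -0.40, 0.0958) and 0 over both sets (Cort -0.33, 0.074), while Cck turned to 0.011 in mice 1 to 16 and Sst to -0.021 for the interaction.

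Replicate numbers are shared by AL and IF animals, so the number was tried as a block. Pairs of the same number had correlations of -0.253 to 0.197 in the 7 male pairs, where 0 were the best match of each other, and of -0.211 to 0.167 in the 8 female pairs, where 1 was. With the replicate block 382 genes were called in mice 1 to 16, 0 in mice 25 to 40, 498 over both sets and 1320 between the fed sets. Cort kept its call in mice 1 to 16 and over both sets, Tac1 lost it between the fed sets (-1.11, 0.172), Pdyn gained one there (0.0345), and Pdyn turned to -0.020 in mice 25 to 40.

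With the striatal marker level as a covariate the genes called were 621 in mice 1 to 16, 107 for the interaction, 566 over both sets and 1277 between the fed sets, and 0 members in mice 1 to 16, over both sets and between the fed sets. Directions turned for Npy (-0.030), Tac1 (-0.22), Penk (-0.25) and Pdyn (-0.11) in mice 1 to 16, Penk (0.021) in mice 25 to 40, Penk (0.23), Pdyn (0.13) and Crh (-0.075) for the interaction, Tac1 (-0.12) and Penk (-0.052) over both sets, and Crh (-0.018) between the fed sets. With the share of short genes as a covariate 2449 genes were called in mice 1 to 16 and 858 for the interaction, and 0 members over both sets. Directions turned for Cck (0.035) in mice 1 to 16, Sst (0.13), Vip (0.022), Cck (0.18) and Pdyn (-0.17) in mice 25 to 40, Cck (0.084) for the interaction, Npy (0.037) and Cck (0.082) over both sets, and Sst (-0.040) between the fed sets.

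Without the libraries high in olfactory bulb markers the genes called were 615 in mice 1 to 16, 0 in mice 25 to 40, 91 for the interaction, 600 over both sets and 1145 between the fed sets, with 0 members in mice 1 to 16, over both sets (Cort -0.33, 0.0825) and between the fed sets (Tac1 -1.43, 0.0598). Cck turned to 0.053 in mice 1 to 16 and 0.017 over both sets, Crh to -0.064 for the interaction and Vip to 0.034 between the fed sets. Without those high in choroid plexus markers the genes called were 76 in mice 1 to 16, 0 in mice 25 to 40, 9 for the interaction, 2 over both sets and 944 between the fed sets, with 0 members in mice 1 to 16, over both sets and between the fed sets (Tac1 -1.44, 0.119). Fewer libraries enter these fits. Cck turned to 0.083 in mice 1 to 16, 0.0088 in mice 25 to 40 and 0.043 over both sets, Npy to 0.021 over both sets, Sst to -0.11 for the interaction, and Vip to 0.0067 and Crh to -0.013 between the fed sets. Without the library high in hippocampus markers 1 gene was called in mice 25 to 40, Vip turned to 0.0094 there and Sst to -0.056 for the interaction.

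Of the 10 listed genes called in mice 1 to 16, the setting that added the library labelled AL mouse 1 ended 8 calls and the fit without libraries high in choroid plexus markers the same 8 (Bdnf, Nos1, Nxph1, Mbp, Mag, Nmb, Cpd and Oprd1), the replicate block 7 (all of those but Mbp), the striatal covariate and the fit without libraries high in olfactory bulb markers 6 each (Bdnf, Nos1, Nxph1, Mag, Nmb and Cpd), the fit without AL mouse 2 and IF mouse 10 6 (Nos1, Nxph1, Mag, Nmb, Cpd and Oprd1), and the fit with no filter 2 (Nxph1 and Cpd). Vipr1 over both sets kept its call with RLE size factors, with DESeq2 and without the library high in hippocampus markers.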

Other observations

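Muscle Penk differed between the sets more than between the diets. It ran from 6.40 over a median of 8.50 to 10.8 CPM in AL males and from 5.84 over 7.29 to 11.9 in IF males, against 1.32 over 1.88 to 3.10 in AL females and 1.18 over 1.99 to 3.30 in IF females. The lowest male library lay above the highest female library. The share of all muscle genes that part the sets in this way was not computed. Sex, set, handling and sequencing batch cannot be told apart, and these levels were not tested. Cck in muscle reached 4.68 CPM in AL mouse 27 and 6.36 in IF mouse 34, while no male muscle library exceeded 0.237. In liver Npy, Cck, Tac1, Pdyn and Crh were at 0 in all 32 libraries, where 3 counts are 0.0670 to 0.115 CPM.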
